A study of Mus musculus with 15 samples.

Results

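The genes described here are 9 markers of T and B lymphocytes: Cd3e, Cd3g, Cd4, Cd8a, Cd8b1, Foxp3, Gzmb, Cd79a and Ms4a1. They were taken by symbol, and all 9 were found among the 23393 genes of each of the authors' 3 deposited tables. The values come from whole kidneys of C57BL/6 mice, a tissue in which lymphocytes are a small minority of cells. Every animal carried floxed alleles of Esrrg (ERRg fl/fl), the gene of the nuclear receptor ERRγ. The knockouts also carried the Sim1-Cre transgene (ERRg fl/fl;Sim1-Cre), and the controls were littermates without Cre. The sources used here do not say which kidney cells Sim1-Cre reaches. By the labels there were 2 control and 3 knockout males at 3 weeks of age, 2 control and 2 knockout females at 3 weeks, and 3 control and 3 knockout males at 3 months. Polyadenylated RNA was sequenced, and the question of the series is which kidney genes depend on ERRγ.

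The direction of the deposited ratios is not named in the tables. A positive log2 fold change is read here as higher in the knockout, and the libraries with the higher values for such genes are called the knockout side. Esrrg itself was at 0.82 ± 0.20 (SE) in 3-week males and 1.04 ± 0.17 in 3-week females in the authors' deposited table, which goes against that reading at 3 weeks. At 3 months it was at -0.87 ± 0.57 with no p-value. The sources used here do not say which exons are floxed, so reads over the whole gene do not check the deletion. Every direction below rests on this reading. The deposited means also held whole reads of 4, 4 and 5 libraries in 3-week males, 3-week females and 3-month males, where the labels give 5, 4 and 6. The knockout side had 2 libraries in each table, and the control side had 2, 2 and 3. Their size factors, times the mean total of the table, give approximate depths in units of 1000000 reads. In 3-week males these were 57.0 and 45.1 on the knockout side and 51.1 and 39.4 on the control side. For 3-week females these were 46.2 and 21.4 against 36.7 and 36.3, and for 3-month males 25.9 and 21.0 against 18.2, 15.9 and 15.2. These depths take the normalized total as equal on both sides. Rebuilt from the deposited means and fold changes, that total was lower on the knockout side. The log2 gap was 0.18 in 3-week males, 0.15 in 3-week females and 0.58 in 3-month males. The depths are therefore too high for the knockout side relative to the control side, most of all at 3 months. Libraries are numbered within a side from the largest size factor to the smallest, and which labelled animal each one is cannot be told. All 3 knockout samples at 3 months are male by title and by the sex label, and female by source name.

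T lymphocytes recognise peptides on MHC molecules through a T cell receptor whose signal is passed on by the CD3 chains. The coreceptor CD4 binds MHC class II and marks helper T cells, and CD8, a dimer of CD8 alpha with CD8 alpha or beta, binds MHC class I and marks cytotoxic T cells. FOXP3 is the transcription factor of regulatory T cells, and granzyme B is a protease that cytotoxic T cells and natural killer cells release into their targets. B lymphocytes recognise antigen through surface immunoglobulin, which signals through CD79A and CD79B, and carry CD20, encoded by Ms4a1. In an uninjured kidney T and B cells are sparse, and collections of them are known from many forms of chronic kidney injury. In whole-tissue RNA, fewer cells of a type and less RNA per cell cannot be told apart.

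The genes lie on several chromosomes, and some are neighbours (positions from GENCODE M21 on the mm10 build). Cd3g (chromosome 9, 44969572 to 44980431) and Cd3e (chromosome 9, 44998740 to 45009627) are on the minus strand, with Cd3d, another CD3 chain, between them. Cd8b1 (chromosome 6, 71322788 to 71337494) and Cd8a (chromosome 6, 71373427 to 71379173) are also adjacent, on the plus strand. Cd4 is on chromosome 6 from 124864692 to 124888221, Foxp3 on X from 7573644 to 7595245, Gzmb on 14 from 56258838 to 56262260, Cd79a on 7 from 24897381 to 24902197 and Ms4a1 on 19 from 11249675 to 11266241. Cd3e, Foxp3 and Ms4a1 overlap other annotated genes. The library kit keeps strand, but the sources used here do not say how strand was handled in counting, so their reads may include some from those genes.

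The windows just upstream of the start site of 3 members follow, from RefSeq promoter sequences of GRCm38.p6. Cd3e and Cd3g are shown because these neighbours are both called at 3 months, and Cd79a because it is the B cell gene on which the libraries differ most. Capitals mark matches to AGGAAG, a core recognised by ETS factors, or to CAGGTG, an E-box, searched on both strands, so that CACCTG is the same E-box read on the other strand.
Cd3e, chr9:45009628-45009861, minus strand: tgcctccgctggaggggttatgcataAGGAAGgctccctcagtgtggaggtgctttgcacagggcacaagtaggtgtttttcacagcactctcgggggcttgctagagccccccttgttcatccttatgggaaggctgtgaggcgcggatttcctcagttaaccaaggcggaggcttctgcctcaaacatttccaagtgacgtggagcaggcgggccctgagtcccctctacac
Cd3g, chr9:44980432-44980681, minus strand: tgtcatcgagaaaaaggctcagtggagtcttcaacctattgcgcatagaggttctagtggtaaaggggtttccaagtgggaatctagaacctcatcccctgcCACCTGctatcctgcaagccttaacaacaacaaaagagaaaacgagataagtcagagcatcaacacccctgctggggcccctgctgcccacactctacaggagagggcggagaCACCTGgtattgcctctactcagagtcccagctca
Cd79a, chr7:24897247-24897380, plus strand: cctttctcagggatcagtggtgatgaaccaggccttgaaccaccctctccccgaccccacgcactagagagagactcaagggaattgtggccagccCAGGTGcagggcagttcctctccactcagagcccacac
The Cd3e window of 234 bases held 1 ETS match, which 27.6% of the same stretch of all 32851 windows hold. The Cd3g window of 250 bases held 2 E-box matches, where 17.2% of windows hold at least 1. The Cd79a window of 134 bases held 1 E-box match, against 9.75% of windows. The RUNX motif TGTGGT and the octamer ATGCAAAT had 0 matches in the 3 windows, with shares of all windows between 7.89% and 14.0% for RUNX and between 0.84% and 1.60% for the octamer. The motifs do not overlap one another in these windows. A match is only a run of letters, and binding was not measured.

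Among the 9 genes, Cd4 rose at 3 weeks in both sexes, and the CD3 chains, Cd4 and both CD8 chains rose at 3 months. In 3-week males 1 of the 7 members with an adjusted p-value was called (authors' DESeq2 comparison, adjusted p under 0.05), and it was higher. Over all tested genes 17.3% were called, 8.81% higher. In 3-week females 1 of 6 was called, again higher, against 18.7% of all tested genes called and 8.29% called higher. In 3-month males 5 of 5 were called higher, against 57.5% of all tested genes called and 29.8% called higher. The median log2 fold change of the 9 members in the authors' deposited tables was 0.60, 0.23 and 1.92, beside -0.01, 0.01 and 0.01 over all tested genes. The authors left out genes with a mean below 10. At 3 months the control-side means of Cd3e and Cd8b1 were 5.21 and 4.88, so these 2 passed that limit through the side where they were high, and the count of 5 is a description. The other 4 members had no adjusted p-value at 3 months: Foxp3, Gzmb and Ms4a1 were marked low, and Cd79a was marked as an outlier.

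**Figure D1:**
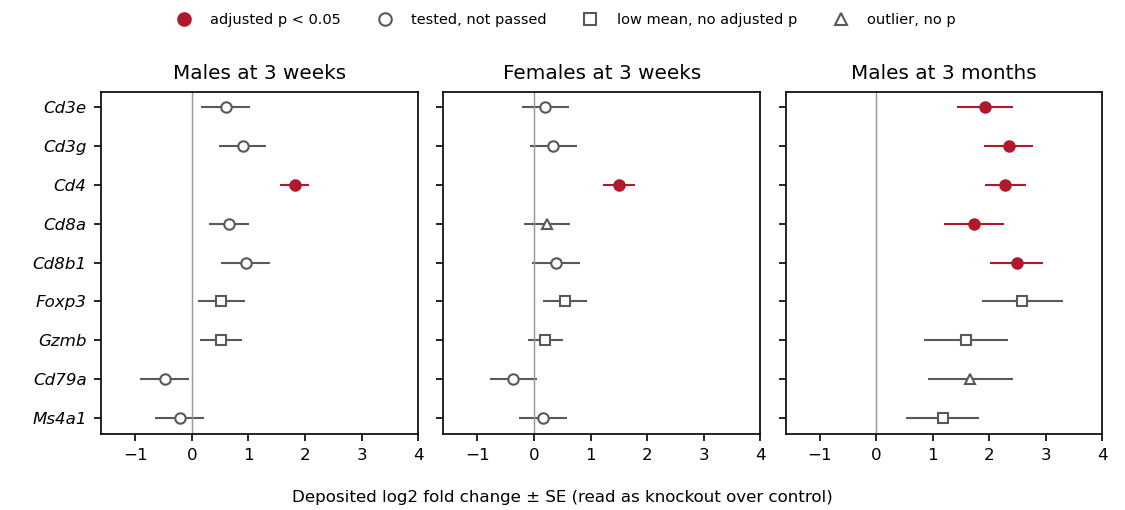
Deposited log2 fold change (x axis, read as knockout over control) with its standard error for the 9 lymphocyte genes (rows) in each of the 3 comparisons. Filled circles passed adjusted p under 0.05, open circles did not, and squares and triangles have no adjusted p-value; at 3 months all 9 points lie right of 0.

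The CD3 chains are the part of the T cell receptor complex that all mature T cells share. At 3 months Cd3e, the epsilon chain, had 30 and 29 reads in the knockout-side libraries and 7, 5 and 2 in the control-side libraries. Scaled by the size factors these were normalized counts of 21.8 and 26.0 against 7.24, 5.90 and 2.48. Both knockout-side libraries lay above all 3 others. The authors' deposited table gave a log2 fold change of 1.92 ± 0.50 (DESeq2 adjusted p = 0.000361). Cd3g, the gamma chain, had 75 and 98 reads against 16, 9 and 7, the one of 3 whole-read solutions for its mean that fits the deposited fold change. Normalized, these were 54.4 and 87.9 against 16.5, 10.6 and 8.68, again without overlap. Its deposited log2 fold change was 2.34 ± 0.43 (adjusted p = 3.29e-07 in the authors' deposited DESeq2 table).

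In 3-week males the same chains were higher in both knockout-side libraries, and neither passed the authors' test. Cd3e had 40 and 17 reads against 13 and 11, which are normalized counts of 33.3 and 17.9 against 12.1 and 13.3. Without the first knockout-side library the log2 ratio of the side means fell from 1.02 to 0.50. The authors' deposited table gave 0.60 ± 0.43 (DESeq2 adjusted p = 0.400). Cd3g had 32 and 41 reads against 15 and 10, or 26.7 and 43.1 against 13.9 and 12.0 normalized. The authors' deposited table gave 0.90 ± 0.42 (DESeq2 adjusted p = 0.137). In 3-week females both chains overlapped between the sides. Cd3e had normalized counts of 16.9 and 12.7 against 16.6 and 5.59, and Cd3g of 26.4 and 23.8 against 24.0 and 9.32. For both, the second control-side library was the low one, and without it the log2 ratio of Cd3e changed from 0.41 to -0.17 and that of Cd3g from 0.59 to 0.06. The deposited fold changes of 0.20 ± 0.42 and 0.34 ± 0.42 did not pass (adjusted p = 0.801 and 0.635 in the authors' deposited DESeq2 table).

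Cd4 was the member called in all 3 comparisons. CD4 is the helper T cell coreceptor, and in mice some dendritic cells and macrophages carry it too. Its deposited mean was 178 normalized counts in 3-week males and 121 in 3-week females, too high to be resolved into whole reads. The authors' deposited tables gave 1.82 ± 0.26 in males (DESeq2 adjusted p = 1.03e-10) and 1.51 ± 0.28 in females (adjusted p = 2.56e-06). At 3 months Cd4 had 85 and 85 reads on the knockout side and 16, 10 and 8 on the control side, the one of 2 solutions that fits the deposited fold change. Normalized these were 61.7 and 76.2 against 16.5, 11.8 and 9.92, without overlap and with the 2 knockout-side libraries close together. The deposited log2 fold change was 2.28 ± 0.36 (adjusted p = 1.03e-09 in the authors' deposited DESeq2 table).

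Cd8a and Cd8b1 encode the alpha and beta chains of CD8. The beta chain is largely a T cell product, and the alpha chain is also made by some dendritic cells. Cd8b1 had 41 and 42 reads against 6, 4 and 3 at 3 months, which are normalized counts of 29.8 and 37.7 against 6.20, 4.72 and 3.72. Its deposited log2 fold change of 2.48 ± 0.47 was the second highest of the members, after Foxp3 (adjusted p = 6.98e-07 in the authors' deposited DESeq2 table). In 3-week males the reads were 28 and 21 against 8 and 5, or 23.3 and 22.1 against 7.43 and 6.02 normalized. Those sides did not overlap, and the authors' deposited value of 0.95 ± 0.44 did not pass (DESeq2 adjusted p = 0.124). Under scaling to total counts it was called, at 1.13. In 3-week females the normalized counts were 16.1 and 11.1 against 11.1 and 4.66, where the lower knockout-side library, at 11.10, and the higher control-side library, at 11.09, nearly met. The authors' deposited table gave 0.39 ± 0.42 there (DESeq2 adjusted p = 0.582).

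Cd8a was far more abundant than Cd8b1 at 3 weeks and not at 3 months. Its deposited means were 229, 142 and 37.0 normalized counts in 3-week males, 3-week females and 3-month males. The authors' deposited tables gave log2 fold changes of 0.65 ± 0.36 in 3-week males (DESeq2 adjusted p = 0.220) and 1.73 ± 0.53 in 3-month males (adjusted p = 0.00246). In 3-week females the value was 0.23 ± 0.41, marked as an outlier with no p-value in the authors' deposited table. Its reads could not be resolved in any table. Per kilobase of merged exons, the mean of Cd8a was 6.36 times that of Cd8b1 in 3-week males, 5.38 times in 3-week females and 0.92 times in 3-month males, each ratio taken within 1 table over all its libraries. Of the CD8 alpha-positive dendritic cell markers in the dendritic list, Xcr1 and Clec9a had deposited means per 1000000 of the table's total of 0.56 and 0.77 in 3-week males, 0.47 and 0.80 in 3-week females and 1.03 and 1.62 in 3-month males. Their part in the Cd8a level was not tested.

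Foxp3 was marked low in all 3 tables, with few reads behind each value. At 3 months it had 17 and 10 reads on the knockout side and 1, 1 and 0 on the control side, or 12.3 and 8.97 against 1.03, 1.18 and 0 normalized. The sides did not overlap. Pooled over libraries this was a 14.2-fold ratio, with an exact 95% interval from 3.57 to 123 that covers counting error only. The log2 ratio of the side means was 3.85, and without 1 library in turn it lay between 3.27 and 4.36. The authors' deposited table gave 2.58 ± 0.71, with p = 0.000299 from their DESeq2 test and no adjusted value. In 3-week females the reads were 9 and 3 against 1 and 2, without overlap, and the pooled ratio was 4.32 with an interval from 1.17 to 23.9. In 3-week males they were 5 and 18 against 5 and 2. These overlapped, since 1 of the 2 knockout-side libraries, at 4.17 normalized, lay below the control-side library at 4.65.

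Gzmb had the fewest reads of the members. At 3 months there were 7 and 8 reads on the knockout side and 1, 0 and 2 on the control side, which gives a pooled ratio of 5.26 with an exact 95% interval from 1.49 to 28.3. The log2 ratio of the side means, 2.39, lay between 1.80 and 3.57 without 1 library in turn, and the highest value was that without the third control-side library. In 3-week males there were 6 and 6 reads against 1 and 1, a pooled ratio of 5.32 with an interval from 1.18 to 48.9. In 3-week females there were 5 and 2 reads against 3 and 0, and the interval of the pooled ratio of 2.52, from 0.58 to 15.1, included 1. The knockout-side libraries lay above the control-side ones in all 3 tables after scaling, in females only by 3.17 against 2.77 normalized counts. The authors' deposited tables gave 0.51 ± 0.38, 0.20 ± 0.31 and 1.59 ± 0.74 in 3-week males, 3-week females and 3-month males, all marked low. The unadjusted p of the authors' DESeq2 test at 3 months was 0.0320.

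**Figure D2:**
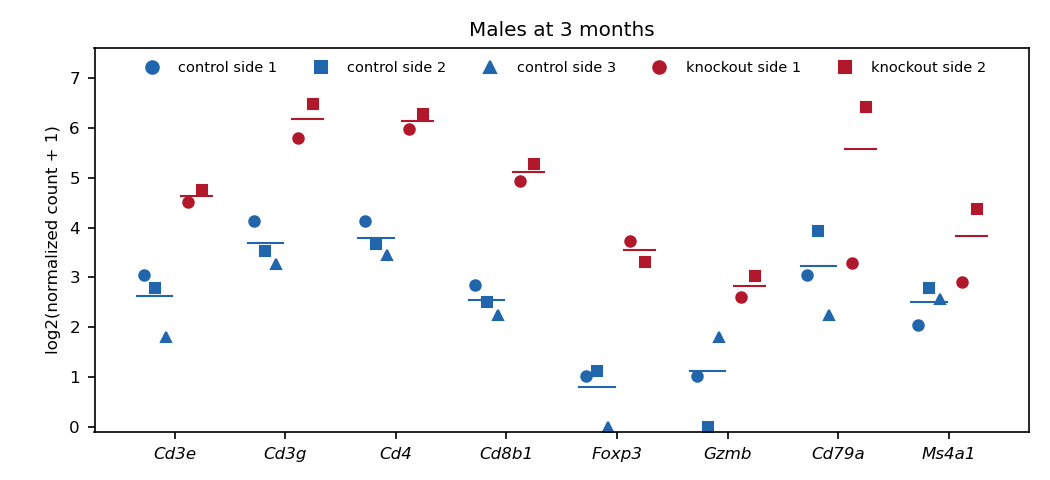
Normalized counts of the 8 members resolved into whole reads at 3 months, as log2(normalized count + 1) on the y axis, for each control-side (blue) and knockout-side (red) library, with a line at the mean of each side. The red points lie above all blue points for 7 genes; for Cd79a they lie at 8.71 and 84.3 normalized counts, with the blue points between 3.72 and 14.2.

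Neither B cell member passed the test at 3 weeks, and at 3 months 1 library decided the value of Cd79a. Cd79a encodes a signalling chain of the B cell receptor. In 3-week males it had 10 and 20 reads on the knockout side and 36 and 16 on the control side, or 8.33 and 21.0 against 33.5 and 19.3 normalized. The authors' deposited table gave -0.48 ± 0.44 (DESeq2 adjusted p = 0.542). In 3-week females the reads were 13 and 7 against 27 and 10, or 9.53 and 11.1 against 24.9 and 9.32 normalized, and the deposited value was -0.36 ± 0.42 (adjusted p = 0.615 in the authors' deposited DESeq2 table). The high value was that of 1 control-side library, and without it the log2 ratio changed from -0.73 to 0.15. At 3 months Cd79a had 12 and 94 reads against 7, 12 and 3, the one of 2 solutions that fits the deposited fold change. One knockout-side library, at 84.3 normalized counts, stood far above the other, at 8.71, which lay among the control-side values of 7.24, 14.2 and 3.72. The log2 ratio of the side means was 2.47, and 0.06 without that library. The authors' deposited table marked the gene as an outlier, at 1.67 ± 0.75 with no p-value.

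Ms4a1, the CD20 gene of B cells, overlapped between the sides at 3 weeks. In 3-week males it had 13 and 21 reads against 22 and 18, and in 3-week females 15 and 10 against 15 and 8. The deposited log2 fold changes were -0.22 ± 0.43 and 0.16 ± 0.42 (adjusted p = 0.822 and 0.845 in the authors' deposited DESeq2 tables). At 3 months it had 9 and 22 reads against 3, 5 and 4, or 6.53 and 19.7 against 3.10, 5.90 and 4.96 normalized, with the lower knockout-side library just above the highest control-side one. The log2 ratio of 1.50 fell to 0.49 without the second knockout-side library. The authors' deposited table gave 1.18 ± 0.65, marked low, with an unadjusted DESeq2 p of 0.0697.

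**Figure D3:**
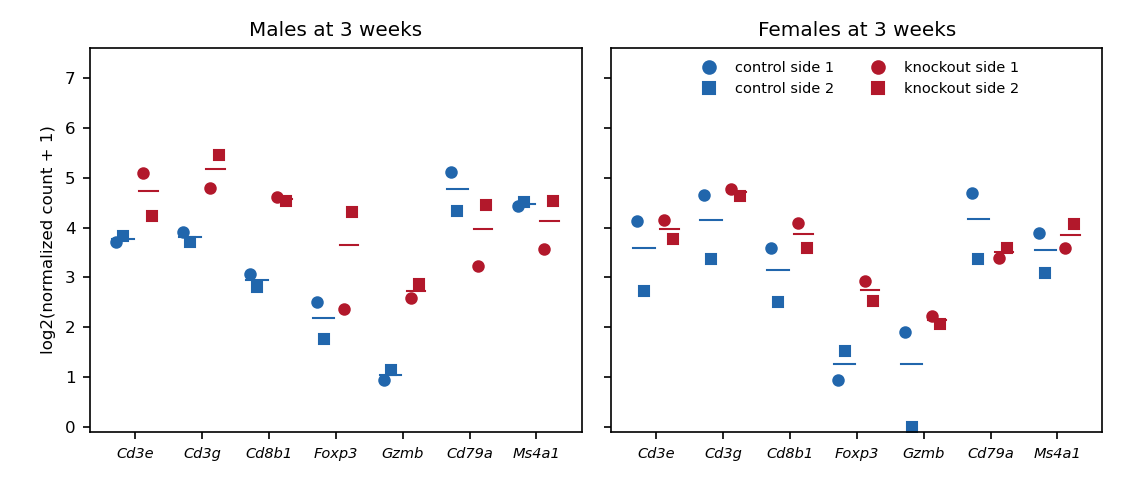
Normalized counts of the 7 members resolved into whole reads at 3 weeks, as log2(normalized count + 1) on the y axis, for males (left) and females (right), with each control-side (blue) and knockout-side (red) library and a line at the mean of each side. In males the red points lie above the blue for Cd3e, Cd3g, Cd8b1 and Gzmb, and the B cell genes Cd79a and Ms4a1 overlap in both sexes.

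Counted over the members resolved into reads, both knockout-side libraries were above every control-side library for 4 of 7 in 3-week males (Cd3e, Cd3g, Cd8b1 and Gzmb), where 37.3% of all genes resolved with a mean between 2 and 40 did the same. In 3-week females this was so for 3 of 7 (Cd8b1, Foxp3 and Gzmb), against 29.4% of genes. At 3 months it was so for 7 of 8, all except Cd79a, against 49.6% of genes. For 0 members were both knockout-side libraries below every control-side library, which was the case for 17%, 18.6% and 13.3% of the same genes. Which library is which animal is not known, so these are counts with no test. Genes whose reads the deposited fold change chose among several solutions are included, and that choice was not checked by simulation.

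The same second knockout-side library at 3 months was the higher one for many other lymphocyte genes, and the size of its excess varied. It was above the first for 7 of 8 members, all except Foxp3, with a median ratio of 1.34. It was above the first for 11 of 12 resolved genes of T cell receptor signalling, with a median ratio of 1.81 and a range from 0.87 (Themis) to 2.70 (Cd5). Among B cell genes it was above for 8 of 10, with a median of 1.84. Cd79b, the partner chain of Cd79a, had 60 and 166 reads against 8, 21 and 14. Fcrla, a B cell protein related to Fc receptors, had 24 and 67 reads against 5, 7 and 5. Tnfrsf13c, the receptor for the B cell survival factor BAFF, had 3 and 14 against 0, 1 and 1, and Cxcr5, the receptor that leads B cells into follicles, had 5 and 20 against 0, 2 and 3. Spib and Fcer2a went the other way, with 86 and 43 reads and 22 and 11 reads on the knockout side. Outside the lymphocyte lists, the second library was also above the first for 6 of 8 neutrophil and mast cell genes, with a median ratio of 1.24. For dendritic cell genes it was above for 2 of 4, with a median ratio of 1.06. The share over all resolved genes was not computed, so these counts are a description and not a trait of lymphocyte genes. They include reads chosen by the deposited fold change among several solutions, a choice that was not checked by simulation.

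**Figure D4:**
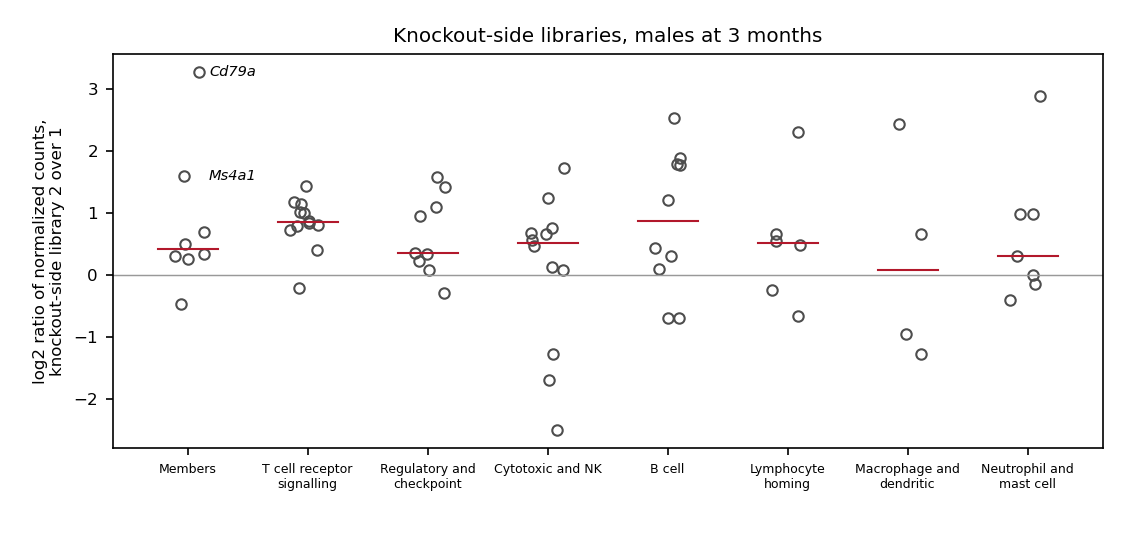
Ratio of normalized counts in the second over the first knockout-side library at 3 months (y axis, log2), 1 circle for each gene resolved into reads with at least 1 read in both libraries, by list, with a red line at the list's median. Cd79a is the highest point among the members and Ms4a1 the next, and as plain ratios T cell receptor signalling genes range from 0.87 to 2.70 and B cell genes from 0.62 to 5.77.

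Per kilobase of merged exons and per 1000000 of the table's total, the order of the members also differed between the ages. In 3-week males Cd8a was at 1.33 and Cd4 at 0.93, followed by Cd79a at 0.30, Cd8b1 at 0.21, Cd3g at 0.15, Cd3e at 0.099, Ms4a1 at 0.064, Gzmb at 0.049 and Foxp3 at 0.035. In 3-week females the order was the same, from 1.15 for Cd8a to 0.023 for Foxp3. In 3-month males Cd79a was first at 0.86, and Cd8b1 at 0.59, Cd3g at 0.58, Cd8a at 0.54 and Cd4 at 0.46 lay close together. Cd3e at 0.17, Gzmb at 0.12, Ms4a1 at 0.069 and Foxp3 at 0.055 followed. The first place of Cd79a rests on 1 library of 5. These are means over both sides, and neighbours in the order were not tested against each other.

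The difference between the sexes and that between the ages were tested directly on the deposited fold changes and standard errors (2-sided normal p, Benjamini-Hochberg over all genes tested in both tables). Between females and males at 3 weeks 0 of 6 testable members differed, and 0 at an unadjusted p under 0.05, where 0% of 13737 genes were called and 237 had such an unadjusted p. The differences, females minus males, lay between -0.56 ± 0.61 (Cd8b1) and 0.38 ± 0.60 (Ms4a1), with standard errors between 0.38 and 0.61 over the 6 members. Between 3 months and 3 weeks in males 0 of 5 testable members differed, against 27.7% of 12355 genes, with positive read as higher in the knockout at both ages. Cd3e at 3 months and Cd8b1 at both ages passed the limit on the mean only through the higher side, so the count is a description. With the 3-week sign turned, as Esrrg would have it, all 5 differed, from 2.38 ± 0.63 (Cd8a) to 4.11 ± 0.44 (Cd4), against 51% of genes, so this result depends on the direction of the ratios. The values that follow are those of the first reading. Cd8b1 at 1.53 ± 0.64 (adjusted p = 0.0596 from the normal test of the deposited DESeq2 values), Cd3g at 1.45 ± 0.61 (adjusted p = 0.0583) and Cd3e at 1.32 ± 0.66 (adjusted p = 0.125) had an unadjusted p under 0.05. So did 4646 of all 12355 genes, or 37.6%. Cd8a was at 1.07 ± 0.63 and Cd4 at 0.46 ± 0.44 (adjusted p = 0.204 and 0.461 from the same test of the DESeq2 values). The fold changes are moderated towards 0 to a different degree in each table, since the largest standard errors were 0.44, 0.42 and 1.10. The part of this in the differences between the ages was not tested.

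The other T cell genes were taken from lists of known functions. Of 15 listed genes of T cell receptor signalling in the tables, 4 of 14 tested were called higher in 3-week males, 2 of 12 in 3-week females and 13 of 14 in 3-month males, where 1 was called lower. Over all tested genes 8.81%, 8.29% and 29.8% were called higher. Of the 13, Cd2, Cd3d, Cd5, Cd6, Cd28, Cd247 and Zap70 had control-side means below 10, so these 7 entered the test through the side where they were high, and the count is a description. The median log2 fold changes of the list were 0.75, 0.46 and 2.10. At 3 months Thy1, a surface protein of T cells and of some fibroblasts and neurons, was at 3.74 ± 0.26 in the authors' deposited table, Tcf7, a T cell transcription factor, at 3.04 ± 0.41, and Lck, the kinase that acts first at the receptor, at 2.18 ± 0.31 (DESeq2 adjusted p = 1.28e-43, 6.58e-13 and 2.76e-11). Cd3d, the delta chain, had 55 and 81 reads against 9, 4 and 3 and was at 2.81 ± 0.53 in the authors' deposited table (DESeq2 adjusted p = 4.75e-07). Cd247, the zeta chain, had 45 and 60 reads against 6, 4 and 4 and was at 2.68 ± 0.49 (adjusted p = 2.74e-07 in the authors' deposited DESeq2 table). Both had deposited values at 3 weeks that did not pass, 0.97 and 0.15 in males and 0.62 and -0.04 in females. The gene called lower was Bcl11b, a T cell transcription factor, at -1.96 ± 0.44 (adjusted p = 2.88e-05 in the authors' deposited DESeq2 table), which other cell types also express.

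Regulatory and checkpoint genes were called higher in 2 of 7, 1 of 7 and 7 of 7 tested cases in 3-week males, 3-week females and 3-month males, beside the same 8.81%, 8.29% and 29.8% of all tested genes. At 3 months 4 of the 7 (Il2ra, Pdcd1, Tnfrsf4 and Tnfrsf18) had control-side means below 10 and were tested only through the higher side. Pdcd1, the inhibitory receptor PD-1, had 32 and 69 reads against 1, 1 and 1 at 3 months and was at 3.76 ± 0.68 in the authors' deposited table (DESeq2 adjusted p = 1.42e-07). Il2ra, the high-affinity interleukin 2 receptor chain of regulatory and activated T cells, had 40 and 41 reads against 3, 4 and 2 and was at 2.85 ± 0.51 (adjusted p = 1.38e-07 in the authors' deposited DESeq2 table). In the list of cytotoxic and natural killer genes, 0 of 4 tested were called at 3 weeks in each sex, and Nkg7, Klrk1 and Klrd1, 3 of 3 tested, were called higher at 3 months, at 1.50, 1.94 and 1.82 in the authors' deposited table. Klrk1 passed the limit on the mean only through the higher side. Another 9 of its 12 genes were marked low there. Ncr1, a defining receptor of natural killer cells, had 7 and 1 reads against 3, 1 and 0.

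Of 14 listed B cell genes, 1 of 11 tested was called higher in 3-week males, 0 of 10 in 3-week females and 6 of 7 in 3-month males, with medians of 0.13, -0.07 and 1.71. Over all tested genes 8.81%, 8.29% and 29.8% were called higher, so 1 of 11, or 9.09%, was near the share of all genes. Of the 6, Fcrla and Spib passed the limit on the mean only through the higher side. The one in 3-week males was Blnk, an adaptor of the B cell receptor, with a deposited mean of 2093 normalized counts, where Cd79b was at 122. At 3 months Spib at 2.89 ± 0.49, Blnk at 1.78 ± 0.24 and Cd72 at 1.73 ± 0.33 were among those called higher (adjusted p = 2.2e-08, 4.55e-13 and 5.16e-07 in the authors' deposited DESeq2 table). Cd79b, Cr2 and Pou2af1 were marked as outliers like Cd79a. Of the plasma cell genes, 0 of 3 tested were called at 3 weeks in each sex and 1 of 2 at 3 months, Irf4 at 4.74 ± 0.42 (adjusted p = 9.74e-28 in the authors' deposited DESeq2 table), a gene that activated T cells and macrophages also use. The list of lymphocyte homing genes had 5 of 11, 5 of 11 and 8 of 9 tested genes called higher, and at 3 months Ccr7, Cxcr3 and Il7r passed the limit only through the higher side. Il7r, the interleukin 7 receptor of resting T cells, was at 1.46, 1.10 and 3.42, and Ccl5, a chemokine of T cells and other leukocytes, at 1.75, 1.69 and 1.61 in the authors' deposited tables, and both were called in all 3.

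**Figure D5:**
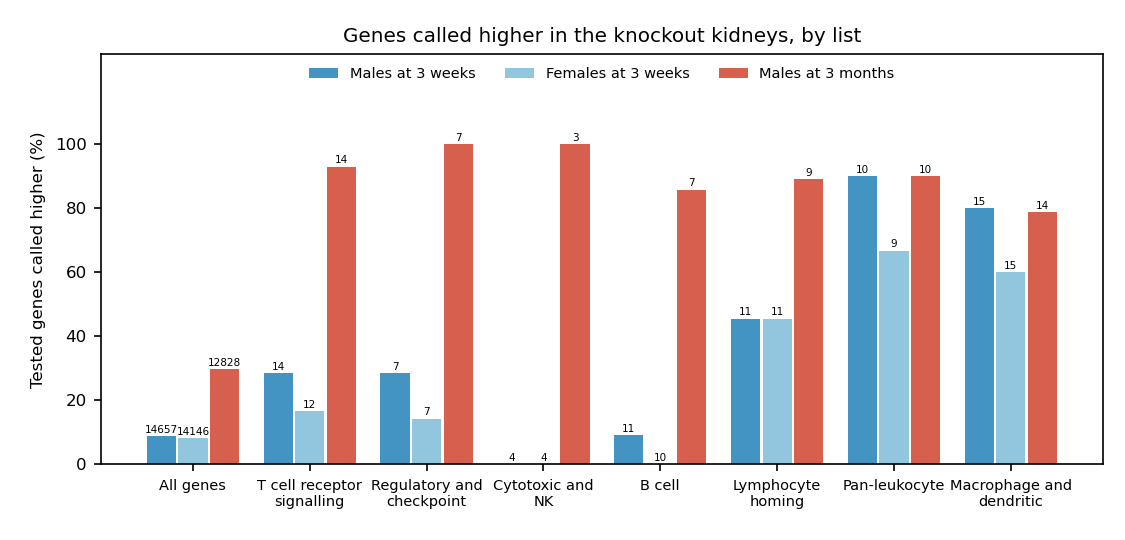
Percentage of tested genes called higher (y axis, authors' adjusted p under 0.05) in each list and over all genes, for 3-week males, 3-week females and 3-month males, with the number of tested genes above each bar. T cell receptor signalling genes go from 4 of 14 and 2 of 12 at 3 weeks to 13 of 14 at 3 months, and B cell genes from 1 of 11 and 0 of 10 to 6 of 7.

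Markers of other white cells were also called higher, where 8.81%, 8.29% and 29.8% of all tested genes were. Pan-leukocyte genes were called higher in 9 of 10, 6 of 9 and 9 of 10 tested cases, with Ptprc, the CD45 gene of all white blood cells, at 0.95 ± 0.20, 0.86 ± 0.18 and 1.70 ± 0.24 in the authors' deposited tables. Macrophage and dendritic cell genes were called higher in 12 of 15, 9 of 15 and 11 of 14 cases, with medians of 1.40, 0.95 and 3.63. Xcr1, called in 3-week males and at 3 months, had control-side means below 10 and passed the limit only through the higher side. Flt3, Xcr1, Clec9a and Siglech, the 4 genes of this list resolved into reads at 3 months, are all dendritic cell genes. Their summed normalized counts were 176 and 195 against 47.6, 55.4 and 89.3. The same sum over the 8 resolved lymphocyte members was 200.3 and 348 against 58.9, 54.3 and 36.0, and without Cd79a it was 191.6 and 264 against 51.7, 40.1 and 32.2. Neutrophil and mast cell genes were called in 0 of 6, 0 of 4 and 3 of 3 cases, and 2 of those 3, S100a8 and S100a9, passed the limit only through the higher side. Some of these cells make Cd4 or Cd8a, and their part in the values of those genes was not tested.

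Of the lymph node and lymphoid stroma genes, 3 of 6, 2 of 5 and 2 of 4 tested were called higher, and Fcamr was called lower in both sets of males. Over all tested genes 8.81%, 8.29% and 29.8% were called higher. Tnfsf11 at 3 weeks in both sexes and Ltb at 3 months had control-side means below 10. These calls passed the limit on the mean only through the higher side. Glycam1, a marker of lymph node vessels, Ccl19 and Ccl21a were listed at 0 in all 3 tables. Ltb, a cytokine of lymphocytes, was at 1.13, 1.22 and 3.27 in the authors' deposited tables, called in all 3, and Madcam1 was marked low in all 3. All 11 genes of kidney tubules and podocytes were detected in each table, and they were called lower in 9 of 10, 5 of 9 and 2 of 2 tested cases. Over all tested genes 8.52%, 10.4% and 27.8% were called lower. The share of white cell RNA and that of tubule RNA in a library are parts of 1 total, and their part in each other's values was not tested. Of the red cell genes, the near-identical copies Hba-a1 and Hba-a2 were listed at 0, and Slc4a1 in 3-week males (-3.42 ± 0.25), which intercalated cells also make, and Alas2 in 3-month males (-1.01 ± 0.40) were called lower in the authors' deposited tables.

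Over the 3 comparisons the genes with log2 fold changes nearest to the members' medians, among 17519 genes, were Elf4, Sh3kbp1 and Slc37a1, at Euclidean distances of 0.052, 0.091 and 0.092 on the log2 scale. Elf4, an ETS factor, was at 0.60, 0.18 and 1.93 in the authors' deposited tables, Sh3kbp1 at 0.56, 0.31 and 1.95 and Slc37a1 at 0.64, 0.15 and 1.93. Likeness over 3 values is a description of these tables.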

How the data were processed

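Polyadenylated RNA of 15 kidneys in 6 groups was sequenced with a stranded kit, per the labels' protocols. STAR, HOMER, DESeq2 and mm10 are named in the submitters' processing notes, without versions. The 3 deposited tables hold, per the file headers, for each gene the normalized count averaged over libraries (signal), the log2 fold change and its SE, the p-value, the adjusted p-value and a status. Per the file headers the authors' p-value is missing for outliers, and on the values the adjusted p-value is missing for means below 10. A gene is called at the authors' adjusted p under 0.05. The unit allowed no count model over all genes, so the authors' comparisons are the tests. The members and lists were chosen with earlier results of these data known. All 9 members are named, with up to 4 genes of a list by smallest adjusted p, its defining markers and the 3 genes nearest to the members' medians. Cd5, Cd2, Cd6, Cd28, Zap70, Tnfrsf4, Tnfrsf18, Ccr7, Cxcr3, S100a8, S100a9, Flt3, Siglech, Themis, Bcl11b, Cd79b, Fcrla, Tnfrsf13c, Cxcr5, Fcer2a, Cr2, Pou2af1, Xcr1, Clec9a, Glycam1, Ccl19, Ccl21a, Madcam1, Fcamr, Hba-a2, Slc4a1 and Alas2 were named after their values were seen. Some genes of the lists are not reported here.

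A mean is a sum over libraries of whole reads times what 1 read is worth there. A step was taken where 20 or more genes had the same mean, below 2, and means up to 60 were resolved into reads. Of 3105, 3228 and 3637 genes with a mean up to 8, 100% had exactly 1 solution. Where several fitted, the deposited fold change chose among them, if it left 1. The log2 ratio of the sides had to share its sign and differ from its size by -0.2 to 1. Genes with 1 solution could lie outside this range, such as Gzmb in 3-week males, at 2.41 against a deposited 0.51. The side of a library is the sign of the deposited fold change of genes with reads in it alone. Reads were divided by size factors, with no pseudocount except 1 in the plots. In simulated means between 20 and 40 at 3 months 19% had 1 solution, and the true reads were among the solutions in 100%. The choice by fold change was not simulated, so reads chosen in this way are less certain. The difference test recovered 92% (females against males) and 90% (3 months against 3 weeks) of simulated log2 differences of 2. Approximate depths are given in the report, and intervals cover counting error only. Nothing says whether a library is 1 animal, so p-values measure the spread between samples. The tables were normalized separately. Python 3.11.15, pandas 2.3.3 and scipy 1.17.1 were used. Rows of 27 symbols turned into dates were left out.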

Additional observations from a re-analysis of the deposited data

How the results depend on the processing

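Of 22 alternative counts of called members, 19 were within 1.5 times the reported count. Under scaling to total counts 2 members were called in 3-week males, with Cd8b1 at 1.13 beside Cd4. With no filter on low means and outliers 1 member, Foxp3, differed between 3 months and 3 weeks (2.06 ± 0.82, adjusted p = 0.0496 by the normal test of the DESeq2 values), Cd79a was at an adjusted p = 0.0512, and 6 of 9 members were called at 3 months. With the 3-week sign turned, an alternative chosen after seeing the data, 5 of 5 members differed between the ages. Of 54 alternative fold changes of members, 53 kept their result. Among these, members with an adjusted p-value stayed on their side of the threshold, and members marked low or as outliers moved by less than their standard error. Only 1, that of Cd8b1, passed the threshold, and 0 changed sign. Total-count scaling added 0.18, 0.15 and 0.58 to every log2 fold change in 3-week males, 3-week females and 3-month males and moved the share of higher calls over all genes from 50.8% to 75.2%, from 44.2% to 74.0% and from 51.7% to 87.0%.

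Over all genes, a fold change of at least 2 left 1029 of 2540, 731 of 2651 and 3669 of 7382 calls, and an adjusted p under 0.01 left 1681 and 1710 calls at 3 weeks. Of the 3418 differences between the ages, 2190 had an adjusted p under 0.01, and 2 differences between the sexes were called with no filter.

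Leaving out 1 library at a time was chosen after seeing the data and bears on the ratios of whole reads, since the deposited tests cannot be refitted. Of 95 such ratios 77 stayed within the spread, 14 moved and 4 changed sign. Those were Ms4a1 in 3-week males without the first knockout-side library (0.068, from -0.36), and in 3-week females Cd3e (-0.17) and Ms4a1 (-0.045, from 0.33) without the second control-side library and Cd79a without the first (0.15). In 3-week males Foxp3 went from 1.71 to 0.24 without the second knockout-side library, and Cd79a from -0.84 to -1.66. Over all omissions Ms4a1 lay between -0.959 and 0.0682 in 3-week males and between -0.0451 and 0.848 in 3-week females, where Cd3e lay between -0.17 and 1.40 and Cd79a between -1.27 and 0.15. At 3 months the ratios over all such omissions lay between 1.86 and 2.51 for Cd3e, 2.19 and 2.88 for Cd3g, 2.27 and 2.67 for Cd4, 2.61 and 3.00 for Cd8b1, 3.27 and 4.36 for Foxp3, 1.80 and 3.57 for Gzmb, 0.06 and 3.33 for Cd79a and 0.49 and 2.08 for Ms4a1. Depth limits Foxp3 and Gzmb, with at most 3 reads per control-side library except for Foxp3 in 3-week males. No paired analysis was possible because the numbers in the sample titles do not repeat between groups and the tables hold no value per library.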
